A study of Homo sapiens with 30 samples.

Results

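The genes described here are 35 genes of central carbon metabolism and of the response to low oxygen, followed across 4 lines made from RWPE1, an immortalized, non-tumorigenic prostate epithelial cell line. They were taken by symbol: 17 genes encode glycolytic enzymes, 3 encode the PFKFB regulators of glycolysis, 2 encode pyruvate dehydrogenase kinases, 6 encode pentose phosphate enzymes and 7 are widely used hypoxia targets. All 35 were found among the 26255 genes of the expression table, and all 35 reached an FPKM (fragments scaled to transcript length and to the number of mapped fragments) of 1 in at least 1 line, as did 12670 genes in all.

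Each of the 4 lines carried a pair of retroviral constructs. RWPE1-Vector carried the empty pQCXIH and pBabe-puro vectors, RWPE1-ERG expressed ERG, the ETS transcription factor activated by gene fusion in many prostate cancers, RWPE1-mAKT expressed a myristoylated, constitutively active AKT, and ERG/mAKT cells expressed both. All lines were grown in keratinocyte serum-free medium with EGF and bovine pituitary extract and were kept under puromycin and hygromycin, so the controls also received EGF. RNA-Seq was carried out on 3 libraries per line, and the table gives 1 pooled FPKM per line. The spread between libraries can therefore not be computed, no test was possible, and a gene was counted as higher or lower where it passed 1.5-fold on the log2(FPKM + 1) scale. Peak lists for ERG, ERK2, H3K27me3 and accessible chromatin (ATAC-Seq) came from some of the same lines, and from a line with ERG S96E, a phosphomimetic form of ERG.

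Glycolysis splits glucose into pyruvate, which lactate dehydrogenase reduces to lactate or which pyruvate dehydrogenase passes to the mitochondria. The pentose phosphate pathway branches off at glucose 6-phosphate and makes NADPH and ribose. AKT signaling is known to promote glucose uptake and hexokinase and phosphofructokinase activity, largely through the proteins themselves, and mTORC1 downstream of AKT can raise the transcription of glycolytic and pentose phosphate genes through HIF1A, MYC and SREBP. Hypoxia-inducible factors (HIF) bind a short core in the promoters and enhancers of many of these genes. They are broken down in normal oxygen after hydroxylation by EGLN enzymes.

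The labels were borne out by the transgenes' own genes. ERG was at an FPKM of 0.264 in RWPE1-Vector, 0.435 in RWPE1-mAKT, 358 in RWPE1-ERG and 328 in ERG/mAKT cells. AKT1 was at 58.7, 156, 64.2 and 281 in the same order, so the line with both constructs held more AKT1 RNA than the line with mAKT alone, and every comparison of ERG/mAKT cells carries this difference. Epithelial markers also differed between the lines. The summed FPKM of KRT5, KRT14, TP63 and ITGB4, nearly all of it KRT5 and KRT14, was 6477 in RWPE1-Vector, 6546 in RWPE1-mAKT, 2174 in RWPE1-ERG and 4928 in ERG/mAKT cells. In ERG/mAKT cells these markers went apart, with KRT5 at 3519 against 3126 in RWPE1-Vector and TP63 at 38.0 against 36.3, but KRT14 at 1185 against 2936 and ITGB4 at 186 against 379. The sum of EPCAM, CDH1, KRT8 and KRT18, most of it KRT8 and KRT18, was 1538, 1781, 3743 and 2004 in the 4 lines. Between RWPE1-Vector and RWPE1-ERG, EPCAM was at 65.0 and 89.7 and CDH1 at 33.7 and 41.2, both within 1.5-fold. The part of these markers in the differences below was not tested. In bulk RNA, a change in the number of cells of one kind and a change in RNA per cell cannot be told apart. Of 4 stromal, 3 endothelial and 3 leukocyte markers, only COL1A1 and CD68 reached an FPKM of 1.

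Glycolytic RNA was abundant in every line. GAPDH was the highest of the 35 genes, at 3347 in RWPE1-Vector, 4728 in RWPE1-mAKT, 4620.2 in RWPE1-ERG and 4208 in ERG/mAKT cells, and it ranked among the 37 most abundant genes in each of them. ENO1, PKM and ALDOA also lay between 990.3 and 1581 in all 4 lines. At the other end, EGLN3 was the only member under an FPKM of 1 in 3 of the lines. Several of the abundant enzymes, GAPDH, TPI1 and PGAM1 among them, have processed copies elsewhere in the genome, and how reads shared with such copies were assigned is not given in the sources used here. In addition, 6 members share their locus in the table with another gene, including TPI1 with SPSB2, PFKM with SENP1 and RPE with KANSL1L.

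**Figure D1:**
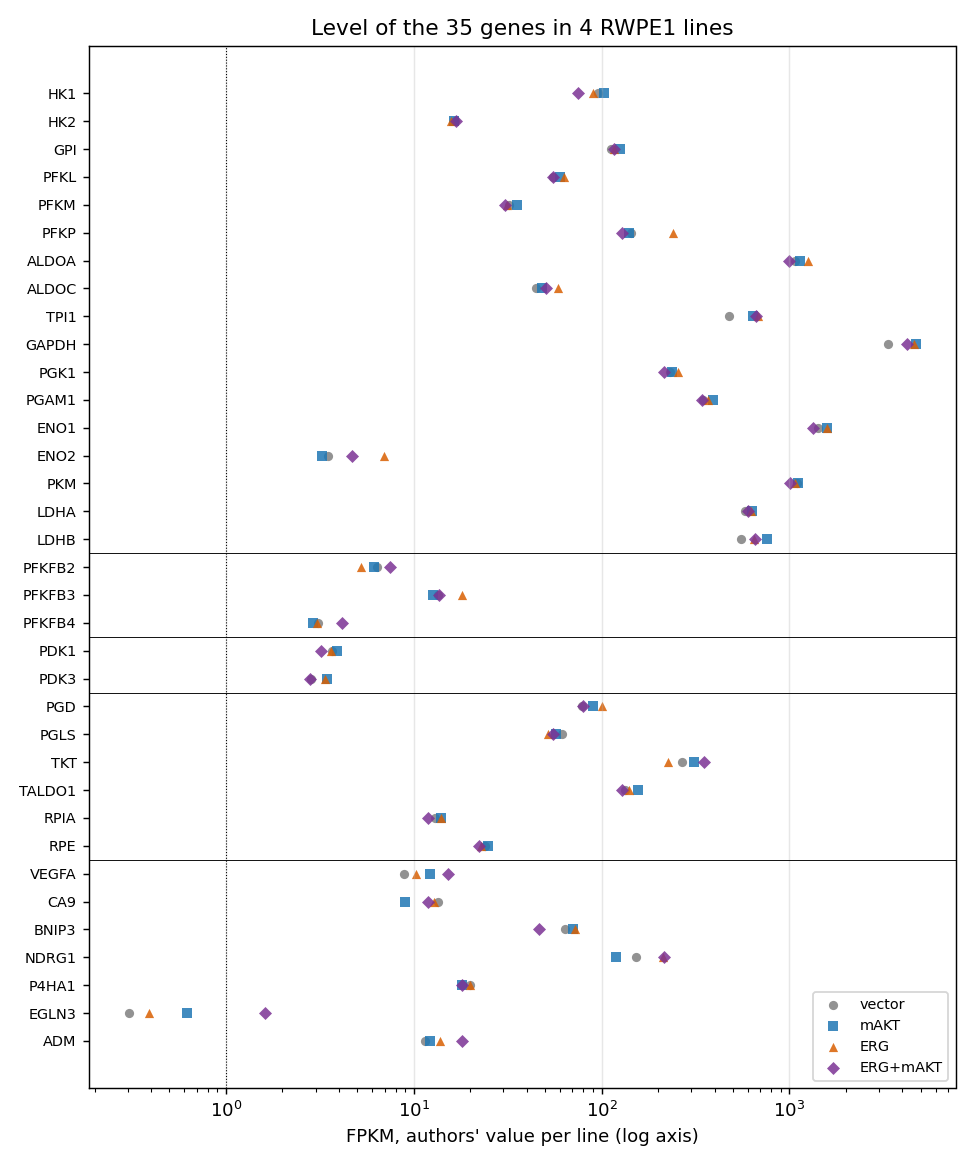
FPKM of each of the 35 genes on a log axis, 1 point per line (the authors' pooled value, without error bars), grouped by role from glycolytic enzymes at the top to hypoxia targets at the bottom. Most genes sit in a tight cluster of 4 points, and PFKP in RWPE1-ERG (241) and EGLN3 in ERG/mAKT cells (1.61) stand away from the other points of their rows.

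Within enzyme families, 1 isozyme usually dominated. HK1 made up 85.2% of the hexokinase FPKM in RWPE1-Vector and 81.7% in ERG/mAKT cells, with HK2, the hexokinase often induced in tumors, at an FPKM between 15.7 and 16.7 in all 4 lines. ALDOA made up at least 95.2% of the aldolase FPKM and ENO1 at least 99.6% of the enolase FPKM in every line. Among the phosphofructokinases, which catalyze the committed step, PFKP held 62.0% in RWPE1-Vector, 59.5% in RWPE1-mAKT and 60.0% in ERG/mAKT cells but 71.9% in RWPE1-ERG. LDHA, the isozyme that favors lactate formation, held 51.1% of the lactate dehydrogenase FPKM in RWPE1-Vector and 45.5% in RWPE1-mAKT, since LDHB was at 554 in the former and 758 in the latter.

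With mAKT alone, none of the 35 genes passed 1.5-fold. Over all genes, 2.19% were higher and 1.89% lower in RWPE1-mAKT than in RWPE1-Vector. The median difference of the 35 genes was 0.10 on the log2 scale, against 0.02 over all genes, and 25 of the 35 were above 0, as were 54.7% of all genes. The closest to the threshold from above were GAPDH (0.50), LDHB (0.45), VEGFA (0.42) and TPI1 (0.42). TPI1, which interconverts the triose phosphates, was at 480 in RWPE1-Vector, 642 in RWPE1-mAKT, 681 in RWPE1-ERG and 663 in ERG/mAKT cells, and both TPI1 and GAPDH were lowest in RWPE1-Vector. From below, the closest was CA9, a membrane carbonic anhydrase and a common marker of hypoxia, at 13.5 in RWPE1-Vector and 8.93 in RWPE1-mAKT (-0.55). The glucose transporter SLC2A1 was at 60.7 and 67.7 in these 2 lines.

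With ERG alone, 2 of the 35 genes were higher and none lower, beside 7.27% and 2.92% of all genes. Both are glycolytic isozymes. PFKP was at 143 in RWPE1-Vector, 141 in RWPE1-mAKT, 241 in RWPE1-ERG and 128 in ERG/mAKT cells. Its level in RWPE1-ERG was thus 1.69 times that in RWPE1-Vector (0.75 on the log2 scale), and the other 3 lines lay close together. ENO2, the enolase of neurons, was at 3.50, 3.24, 6.99 and 4.71 in the same order, a difference of 0.83 between RWPE1-ERG and RWPE1-Vector, although ENO1 exceeded it more than 100-fold in every line. TPI1 (0.50), NDRG1 (0.49) and GAPDH (0.47) came next. The median over the 35 genes was 0.11, against -0.01 over all genes, and 13 of the 17 glycolytic enzymes were above 0, as were 48.1% of all genes.

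**Figure D2:**
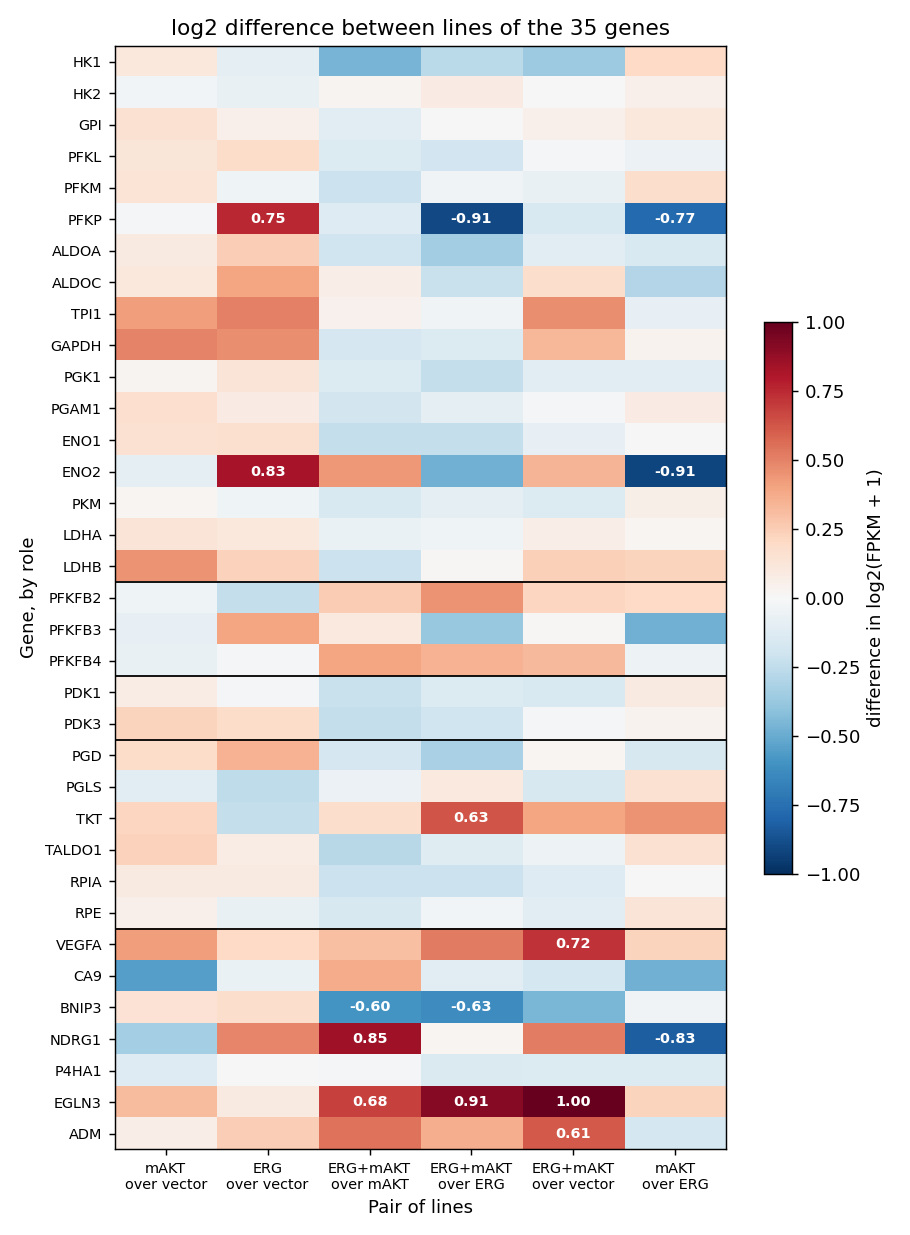
Difference in log2(FPKM + 1) of the 35 genes (rows, grouped by role) for 6 pairs of lines (columns), red where the first-named line was higher and blue where it was lower. Printed values are those past 1.5-fold. The mAKT over vector column has none, and PFKP and ENO2 are the 2 in the ERG over vector column.

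PFKP was near its RWPE1-Vector level in ERG/mAKT cells. Between ERG/mAKT cells and RWPE1-ERG, 2 members were higher and 2 lower, beside 4.21% and 6.85% of all genes. PFKP was lower by -0.91 on the log2 scale, the ratio of FPKM being 0.532. BNIP3, a mitochondrial receptor for mitophagy, was at 64.0 in RWPE1-Vector, 70.7 in RWPE1-mAKT, 72.4 in RWPE1-ERG and 46.4 in ERG/mAKT cells, lower by -0.63. TKT, the transketolase that links the non-oxidative pentose phosphate branch to glycolysis, was at 267, 310, 226 and 351 in that order, higher by 0.63 over RWPE1-ERG. EGLN3, a HIF prolyl hydroxylase that is itself a HIF target, was at 0.304, 0.623, 0.390 and 1.61, higher by 0.91. The pseudocount of 1 shrinks this difference, and the direct ratio of the FPKM values was 4.12. Of the 17 glycolytic enzymes 15 were below 0 in this comparison, as were 56.4% of all genes, with a median of -0.13 against -0.04 over all genes. TKT did not stand for its pathway, since 4 of the 6 pentose phosphate enzymes were below 0 (median -0.08). Below 0 were also 1 of the 3 PFKFB genes (median 0.35) and 2 of the 2 pyruvate dehydrogenase kinases (median -0.17).

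Between ERG/mAKT cells and RWPE1-mAKT, NDRG1 (0.85) and EGLN3 (0.68) were higher and BNIP3 (-0.60) was lower. The shares over all genes were 4.43% and 2.45%. NDRG1, a stress-responsive gene induced by hypoxia and differentiation, was at 152 in RWPE1-Vector, 119 in RWPE1-mAKT, 213 in RWPE1-ERG and 216 in ERG/mAKT cells. Both lines with ERG were above both lines without it. The difference of BNIP3 passes the threshold only narrowly, and it did not pass once the ratios were centred on the median of all genes. HK1 was lowest in ERG/mAKT cells, at 74.5 against 103 in RWPE1-mAKT (-0.47).

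Compared with RWPE1-Vector, ERG/mAKT cells had 3 members higher and none lower, beside 5.41% and 3.34% of all genes. All 3 are hypoxia targets. VEGFA, the angiogenic growth factor, was at 8.86 in RWPE1-Vector, 12.2 in RWPE1-mAKT, 10.3 in RWPE1-ERG and 15.2 in ERG/mAKT cells, a difference of 0.72. ADM, the secreted vasodilator peptide adrenomedullin, was at 11.5, 12.1, 13.9 and 18.1, a difference of 0.61. EGLN3 differed by 1.00. Each of the 3 was lowest in RWPE1-Vector and highest in ERG/mAKT cells. The other 4 hypoxia targets did not follow: NDRG1 was at 0.51, P4HA1, a collagen prolyl hydroxylase, at -0.14, CA9 at -0.17 and BNIP3 at -0.46. None of the 17 glycolytic enzymes passed the threshold in either direction. Between the 2 single lines, RWPE1-mAKT was lower than RWPE1-ERG for ENO2 (-0.91), NDRG1 (-0.83) and PFKP (-0.77) and higher for no member, beside 3.5% of all genes higher and 7.34% lower.

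**Figure D3:**
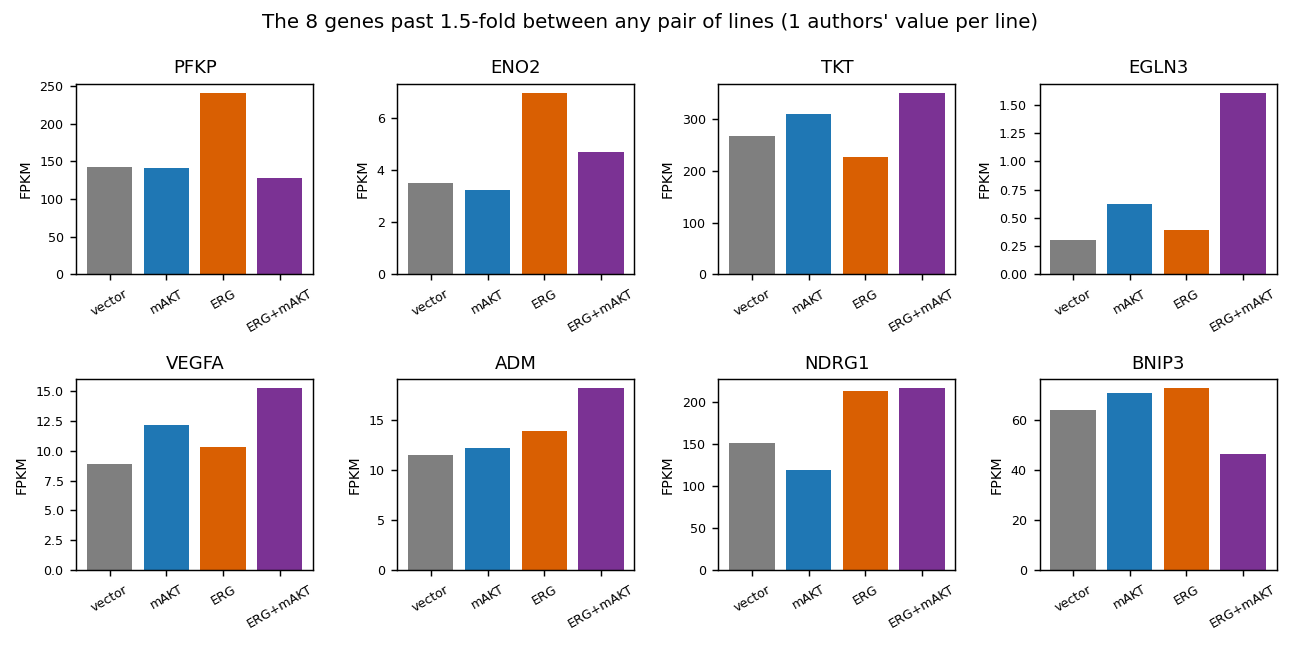
FPKM (linear axis from 0) in the 4 lines for the 8 genes past 1.5-fold between any pair, 1 bar per line without error bars because the table holds pooled values. PFKP and ENO2 are tallest in RWPE1-ERG, TKT, EGLN3, VEGFA and ADM in ERG/mAKT cells, and BNIP3 is shortest in ERG/mAKT cells.

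In all, 8 of the 35 genes (22.9%) passed 1.5-fold between at least 1 pair of lines, and 27 did not, beside 19.7% of all genes that did. The median range over the 4 lines was 0.35 on the log2 scale for the 35 genes and 0.33 for all genes. The share past 1.5-fold varied with the level of a gene in its highest line. At an FPKM of 1000 or more, 53.0% of 185 genes passed (median range 0.67), but 0 of 4 members (0.29). Those 4 were GAPDH, ENO1, ALDOA and PKM. Between 100 and 1000 the shares were 25.1% of all genes and 25% of 12 members. Between 10 and 100 they were 16.8% and 23.1% (13 members), and between 1 and 10 they were 20.7% and 33.3% (6 members). PGK1, PGAM1, PKM, LDHA, GPI and HK2 are among the 25 members whose differences stayed under 0.5 in all 6 pairs. The median range of all genes (0.33) is also under 0.5, and the share of all genes under it was not computed. RWPE1-ERG was the highest line for 13 of the 35 genes (31.9% of all genes), RWPE1-mAKT for 12 (26.6%), ERG/mAKT for 8 (18.2%) and RWPE1-Vector for 2 (23.3%). ERG/mAKT was the lowest line for 16 (36.4% of all genes).

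The ERG differences with and without mAKT were set side by side. Subtracting the ERG over vector difference from the ERG/mAKT over mAKT difference gave a median of -0.26 over the 35 genes, against -0.06 over all genes, and a value below 0 for 16 of the 17 glycolytic enzymes and 58.0% of all genes. PFKP had the most negative value (-0.89), followed by BNIP3 (-0.77) and GAPDH (-0.63). The hypoxia group ran the other way at its median (0.29), with EGLN3 at 0.59, CA9 at 0.44 and NDRG1 at 0.36. All 4 lines enter this quantity once, and without single libraries it has no error.

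**Figure D4:**
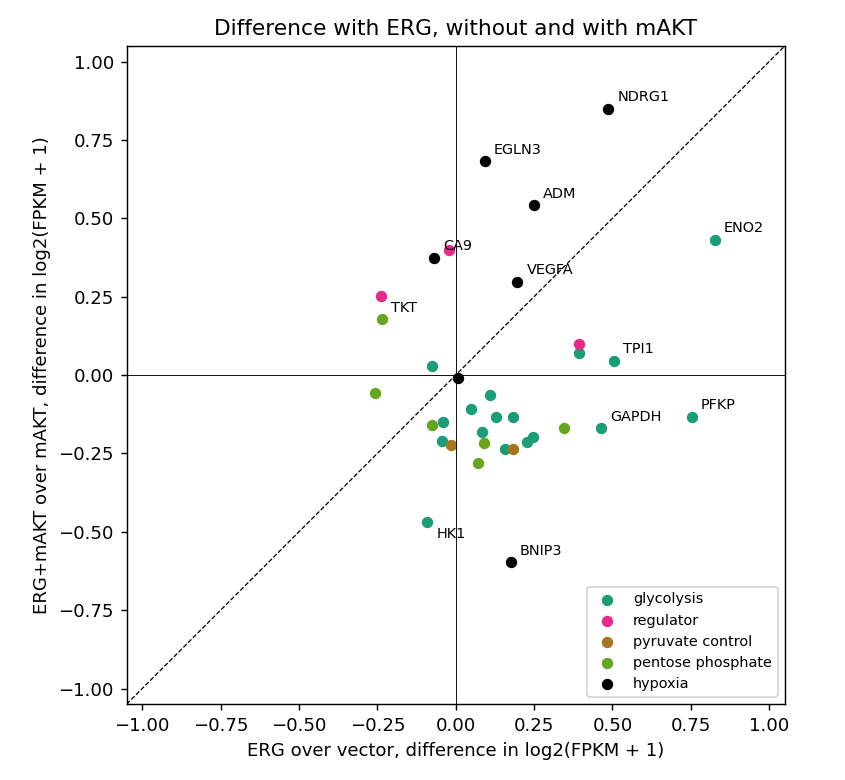
Each point is 1 of the 35 genes, with its ERG over vector difference in log2(FPKM + 1) on the x axis and its ERG+mAKT over mAKT difference on the y axis, colored by role. The dashed line marks equal differences, and 16 of 17 glycolytic enzymes lie below it while 5 of 7 hypoxia targets lie above it.

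The rest of the pathway was read from fixed lists. Among 21 further genes of glycolysis and its transporters, 13 of which reached an FPKM of 1, the phosphoglucomutase PGM2 was higher in RWPE1-ERG than in RWPE1-Vector (26.5 and 15.3), as it was in ERG/mAKT cells (23.6). The monocarboxylate transporter SLC16A7 was lower in RWPE1-ERG than in RWPE1-Vector (1.20 and 2.34), and the muscle mutase PGAM2 was higher in ERG/mAKT cells (2.73) than in RWPE1-mAKT and RWPE1-Vector (1.26 in both). PGM2, SLC16A7 and PGAM2 were the 3 of these 13 past 1.5-fold in any pair (23.1%, beside 19.7% of all genes). No gene of pyruvate dehydrogenase control (10 at an FPKM of 1) or of the other pentose phosphate enzymes (6) passed in any of the 6 pairs. Nor did any of oxygen sensing (7) or of the tricarboxylic acid cycle (16), beside the same 19.7% of all genes. SLC2A1 was at 60.7 in RWPE1-Vector, 67.7 in RWPE1-mAKT, 55.6 in RWPE1-ERG and 74.2 in ERG/mAKT cells. HIF1A RNA was at 90.3, 78.7, 91.2 and 98.5 in the same order and EPAS1 RNA, which encodes HIF2A, at 40.8, 45.1, 32.8 and 47.5. MYC was at 181 in RWPE1-Vector and 138 in RWPE1-ERG.

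Of 23 other hypoxia targets at an FPKM of 1, 6 passed 1.5-fold in at least 1 pair (26.1%, beside 19.7% of all genes) and 17 in none, and the 6 did not share a direction. PLOD2, a collagen lysyl hydroxylase, was at 17.8 in RWPE1-Vector, 14.4 in RWPE1-mAKT, 41.7 in RWPE1-ERG and 18.4 in ERG/mAKT cells, so that RWPE1-ERG was the highest line, as it was for PFKP. IGFBP3 was at 4.44, 3.31, 41.1 and 13.7. CA12, a carbonic anhydrase related to CA9, was at 9.68, 8.95, 2.33 and 12.9, and DDIT4, an mTORC1 inhibitor, at 613, 885, 368 and 650.5, so that both were lowest in RWPE1-ERG. LOX was at 4.68, 2.40, 6.96 and 3.04, and ANGPTL4 at 7.15, 5.63, 10.9 and 8.13. In ERG over vector, 2 of the 23 were higher (IGFBP3 and PLOD2) and 2 lower (CA12 and DDIT4), beside 7.27% and 2.92% of all genes.

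The promoters of several of these genes hold the HIF core, which was searched as ACGTG or GCGTG on both strands of the 250 bases before the start of the canonical transcript. It was found for 24 of the 35 genes (68.6%) and in 59.7% of 11023 promoters of the same length, and such promoters are GC-rich (median GC content 70.4% for the 35 genes and 66.4% over all). The E-box CACGTG, which contains ACGTG, was in 4 of 35 (9.56% of all) and the ETS words AGGAAGTG or CGGAAGTG only in that of GPI (9.53% of all). The sequences of 3 of the genes past 1.5-fold that hold the core are given for comparison (GRCh37 reference, gene strand, 5′ to 3′, cores in capitals, also where they read on the other strand). BNIP3 has 6 matches packed between 143 and 100 bases before the start, with its CACGTG counted on each strand. ADM and ENO2 have 1 match each.
BNIP3, chr10:133795428-133795677, minus strand: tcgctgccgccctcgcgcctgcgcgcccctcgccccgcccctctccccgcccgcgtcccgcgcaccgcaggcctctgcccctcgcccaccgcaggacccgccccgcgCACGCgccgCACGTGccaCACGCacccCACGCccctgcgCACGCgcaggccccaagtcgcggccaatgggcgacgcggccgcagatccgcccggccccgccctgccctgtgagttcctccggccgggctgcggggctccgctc
ADM, chr11:10326370-10326619, plus strand: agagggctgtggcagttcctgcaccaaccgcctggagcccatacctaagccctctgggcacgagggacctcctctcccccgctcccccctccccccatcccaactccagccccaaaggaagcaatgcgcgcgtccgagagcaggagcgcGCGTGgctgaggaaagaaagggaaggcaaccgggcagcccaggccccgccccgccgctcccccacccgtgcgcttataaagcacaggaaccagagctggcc
ENO2, chr12:7023494-7023743, plus strand: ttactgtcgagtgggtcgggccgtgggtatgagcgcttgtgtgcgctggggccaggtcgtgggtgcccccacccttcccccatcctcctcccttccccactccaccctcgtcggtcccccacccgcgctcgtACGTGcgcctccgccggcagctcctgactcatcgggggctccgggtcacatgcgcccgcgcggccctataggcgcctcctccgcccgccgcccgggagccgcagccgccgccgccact

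Of the genes shown, BNIP3 was lowest in ERG/mAKT cells, ADM highest there, and ENO2 highest in RWPE1-ERG. VEGFA and NDRG1 also passed 1.5-fold and hold 1 match each. Both were highest in ERG/mAKT cells, as ADM was, although NDRG1 was nearly as high in RWPE1-ERG (216 and 213). PFKP, TKT and EGLN3 have no core in this window. All 35 genes had an ATAC peak within 1 kb of the start in RWPE1-ERG, RWPE1-mAKT and ERG/mAKT cells, beside 92.9%, 92.4% and 89.4% of all genes. The fold enrichments of these peaks ran from 2.39 at ADM in RWPE1-mAKT to 12.5 at PGK1 in ERG/mAKT cells. They were not set against each other between lines, since the lists were called separately.

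ERG was mapped by ChIP-Seq in ERG/mAKT cells. PFKP was the only 1 of the 35 genes with an ERG peak within 1 kb of the start, beside 1.87% of all genes. The peak covers 109 bp at chr10:3110201-3110309 (hg19), begins 461 bp downstream of the PFKP start on chr10, lies in the first intron and had a fold enrichment of 4.24 with a -log10 q-value of 0.686, so it passed the authors' p-value cutoff but not a q-value of 0.01. The 1 listed ATAC peak within 1 kb of the PFKP start did not overlap it in ERG/mAKT cells (chr10:3110667-3110917) or in RWPE1-ERG (chr10:3110425-3111187). In RWPE1-mAKT the listed ATAC peak (chr10:3109653-3111097) covered it. The ERG peak holds GGAA, the core of ETS sites, 3 times on the 2 strands and neither longer ETS word. By comparison, the central 109 bases of 69.9% of all 9113 ERG peaks hold at least 1 GGAA and 15.3% hold at least 3. The reference sequence of the peak, with GGAA or its complement in capitals, follows.
PFKP ERG peak, chr10:3110201-3110309, plus strand: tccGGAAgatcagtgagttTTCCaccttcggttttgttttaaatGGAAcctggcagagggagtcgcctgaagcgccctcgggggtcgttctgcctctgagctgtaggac

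Over the canonical transcripts from end to end, 5 members held an ERG peak (HK1, PDK1, PFKFB3, PFKP and PKM), beside 16.6% of all genes. HK1 held 4 such peaks and PFKP 3, each with a highest fold enrichment of 4.94. ERG was mapped only in the line with mAKT among those used here, whereas PFKP was highest in the line with ERG alone. ERK2 peaks within 1 kb were found at 6 of the 35 genes in RWPE1-ERG (8.82% of all genes) and at 7 in RWPE1-Vector (13.8% of all genes). ADM, GAPDH, NDRG1 and TPI1 were in both lists. The NDRG1 peak in RWPE1-Vector, with a fold enrichment of 5.36 and a -log10 q-value of 2.51, was the only one of these 13 that passed a q-value of 0.01.

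EGLN3 stood apart from the other members in its listed regions of H3K27me3, the repressive histone mark of PRC2, although most of these regions were weak. A listed region lay within 1 kb of the start at 3 of the 35 genes in RWPE1-Vector, 1 in RWPE1-ERG and 4 in RWPE1-ERG S96E, beside 8.62%, 3.37% and 7.36% of all genes, and EGLN3 was the only gene in all 3. Regions covered 30.1% of the EGLN3 transcript in RWPE1-Vector, 7.92% in RWPE1-ERG and 20.3% in RWPE1-ERG S96E. The next member in each list was at 6.82%, 0.784% and 5.40%, and the 90th percentile of all genes was 7.06%, 0.668% and 1.23%. The region nearest the EGLN3 start lay 307 bp from it in RWPE1-Vector, 860 bp in RWPE1-ERG and 24 bp in RWPE1-ERG S96E, each time inside the gene. Its fold enrichment was 2.39, 2.29 and 5.13 in that order. Over each whole list the median fold enrichment was 1.84, 1.94 and 2.01. The -log10 q-values of these EGLN3 regions were 0.0652, 0.0322 and 5.71, so only the last had a q-value below 0.01. The first 2 regions are thus hardly set off from background by their q-values. PFKP also held a region with a q-value below 0.01 in RWPE1-ERG S96E, with a fold enrichment of 3.64 and a -log10 q-value of 2.21. The 3 lists differ in how much was called, with 242 Mb, 138 Mb and 224 Mb in all, so their coverage is not comparable between lines. H3K27me3 was not examined here in ERG/mAKT cells, the line in which EGLN3 RNA was highest.

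**Figure D5:**
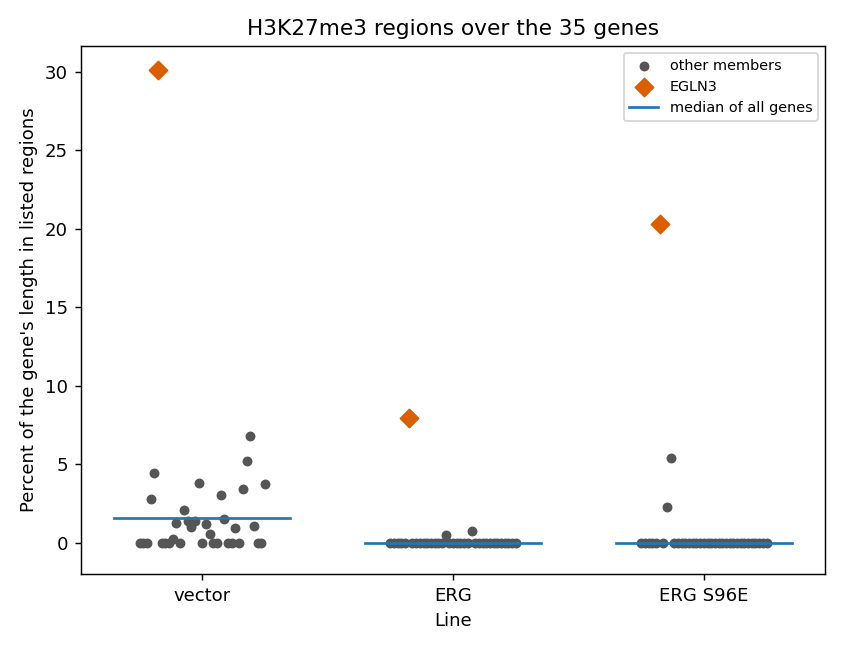
Percent of each gene's canonical transcript length lying in listed H3K27me3 regions, 1 point per gene in 3 lines, with the median of all genes as a blue line. EGLN3 (orange diamond) is the highest of the 35 genes in each line, at 30.1%, 7.92% and 20.3%.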

How the data were processed

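RNA-Seq libraries (3 per line, 4 lines) were aligned by the authors with TopHat2 to hg19 and pooled per line by Cuffdiff, and the FPKM values used here are those the authors deposited, 1 per line and gene. The table has 0 columns of single samples and gives no read depth. Its fold changes, test statistics, p-values and q-values are the authors' comparisons and were not used. Rows were matched by symbol. Differences are log2(FPKM + 1), computed in Python 3.11.15 with pandas 2.3.3, over 12670 genes at an FPKM of 1 or more in any line, with a threshold of 1.5-fold.

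ChIP-Seq and ATAC-Seq peak lists were deposited with the authors' MACS2 fold enrichment ratio and −log10 q-value per peak. The ratio is over a control for the ChIP lists, whereas no control is named for the ATAC lists. ChIP lists were called at a p-value cutoff per the file headers, with 8393459 to 26454542 reads per ChIP, so many peaks have weak q-values. Starts came from the canonical transcripts of GENCODE v44lift37, found for 11023 genes, and a promoter peak overlapped 1 kb to either side by 1 bp or more. Promoter sequence was read from GRCh37. The VCaP lists and RWPE1-Vector ATAC-Seq were not analysed here. The values of 1 gene of the fixed lists and 1 promoter sequence are not reported here.

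Counting of differences and of overlaps was tested on simulated data. Named genes include all members past 1.5-fold in any pair, the main isozyme of each glycolytic step and a few set regulators and transporters. Genes of fixed lists past 1.5-fold and some other members are also named. No single expression values are given for PGD, PGLS, TALDO1 and RPIA. EGLN3 was singled out for H3K27me3 after its values were seen. The members and lists were chosen with earlier results of these data known. Other pseudocounts, filters, centring, thresholds and peak settings were tried.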

Additional observations from a re-analysis of the deposited data

How the results depend on the processing

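No paired analysis was possible because the table holds 1 pooled value per line, and for the same reason no library could be left out. The medians of the 35 genes moved by at most 0.1 on the log2 scale under each alternative, but most were themselves of about that size or smaller. Centring took the median of ERG/mAKT over ERG from -0.10 to -0.06 and that of ERG/mAKT over mAKT from -0.13 to -0.06. It changed the sign for ERG/mAKT over vector (-0.01 to 0.04) and for mAKT over ERG (0.02 to -0.02). With a pseudocount of 0.1, 1 gene was higher and 1 lower in RWPE1-mAKT over vector where none had been, and EGLN3 reached 2.08 in ERG/mAKT over vector. With an FPKM floor of 5, which leaves 31 members, the genes higher in ERG/mAKT numbered 1 over RWPE1-ERG and 1 over RWPE1-mAKT. Centring left 0 genes lower in ERG/mAKT over mAKT and made 3 higher where there had been 2. BNIP3 in ERG/mAKT over RWPE1-ERG then passed only narrowly, at -0.587. At a threshold of 2-fold on the log2(FPKM + 1) scale 0 members passed in any pair. EGLN3 fell just short in ERG/mAKT over vector, at 0.9995. Without a pseudocount, the highest line was 5.29 times the lowest for EGLN3 and 2.16 times for ENO2. The shares of all genes under these other expression settings were not computed. Within 5 kb of the start, a peak was found at 3 members for ERG (6.26% of all genes), 12 for ERK2 in RWPE1-Vector (32.7%) and, for H3K27me3, at 17 in RWPE1-Vector (51.5%), 3 in RWPE1-ERG (14.2%) and 8 with ERG S96E (19.1%). At a q-value of at most 0.01 the counts were 0 for ERG (0.0726%), 0 for ERK2 in RWPE1-ERG (0.354%) and 1 in RWPE1-Vector (0.445%), and for H3K27me3 0 in RWPE1-Vector (0%), 0 in RWPE1-ERG (0.00907%) and 2 with ERG S96E (2.33%), so few genes of any kind passed. The ATAC counts stayed within 1.5 times throughout.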
